A study of Mus musculus with 8 samples.

Results

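The 54 mitosis and spindle genes described here are a named set that runs from the cyclins and kinases of mitotic entry to the condensins that compact chromosomes. They were picked by gene name out of 47937 gene IDs in the count tables by a rule that uses no measured value, and all 54 were found; the set itself was drawn up with earlier results of these data known. The cells are mouse pro-B cells transformed with A-MuLV (Abelson murine leukaemia virus), of genotype EBF1-dTAG_N, in which an exogenous, dTAG-modified EBF1 stands in for the endogenous protein. EBF1 is a transcription factor that specifies the B lineage, and dTAG-13 is a small molecule that brings a dTAG-fused protein to an E3 ubiquitin ligase for degradation. The groups were 4 libraries of cells given 0.5 µM dTAG-13 for 6 h and 4 libraries of cells given DMSO, the vehicle, for 6 h by the treatment label, though the sample titles give 0 h for the DMSO libraries. Every library, the DMSO ones included, carried the tagged EBF1, so effects of the compound itself and of EBF1 loss cannot be told apart. The labels call the 4 libraries of a group biological replicates and do not give the number of clones, and a transformed line may cycle differently from pro-B cells in bone marrow.

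Cells that divide make most of the proteins of this set late in the cell cycle. Cyclins A and B switch on CDK1, the Polo and Aurora kinases build the spindle, the checkpoint proteins hold the anaphase-promoting complex (APC/C) until every kinetochore is attached, and condensins and topoisomerase II shape the chromosomes. The MuvB complex, with its partners B-MYB (Mybl2) and FOXM1, is known to switch on many of these genes in late S phase and G2 through a promoter element called the CHR (cell cycle genes homology region), often close to CCAAT boxes bound by NF-Y. In bulk RNA, fewer cells in mitosis and less RNA per mitotic cell cannot be told apart.

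Promoters show what the set shares that its names do not give, and the stretches below were taken from the members with the lowest adjusted p in exonic reads that held a searched motif. RefSeq promoters (GRCm38.p6, 250 bases before to 50 after the start site) were present for 45 of the 54 genes. Spc24, Ccna2, Kif20a, Aurkb, Cdc25c, Tpx2, Foxm1, Incenp and Smc4 had none in that table. Capitals mark the core of a CHR (TTTGAA), the NF-Y box and, in Kif18a, an E2F-type site. Where a motif lies on the other strand, as the CHR core of Ndc80 and Ttk, the NF-Y box of Kif23 and the E2F-type site of Kif18a do, the capitals show its reverse complement. Each sequence is written 5′ to 3′ on the strand of its gene, and positions are counted from the RefSeq start site.
Ndc80, chr17:71526811-71526840, minus strand, after the start site: gaaactttaaaaTTCAAAccgccttgggtt
Kif18a, chr2:109280638-109280737, plus strand, before the start site: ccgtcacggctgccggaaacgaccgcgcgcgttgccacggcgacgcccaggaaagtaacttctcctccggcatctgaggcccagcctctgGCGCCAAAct
Ttk, chr9:83834684-83834713, plus strand, across the start site: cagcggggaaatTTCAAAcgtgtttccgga
Ncapg, chr5:45669883-45669912, plus strand, before the start site: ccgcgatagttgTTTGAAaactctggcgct
Cdc20, chr4:118437344-118437443, minus strand, before the start site: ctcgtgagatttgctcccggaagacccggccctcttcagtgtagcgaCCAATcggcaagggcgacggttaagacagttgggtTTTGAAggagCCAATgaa
Kif23, chr9:61946780-61946809, minus strand, across the start site: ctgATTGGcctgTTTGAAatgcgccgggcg

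The hexamer TTTGAA, searched on both strands, was held by 32 of the 45 promoters (71.1%), against 1264 of 8605 promoters of genes tested in exonic reads (14.7%) and 5466 of all 27025 promoters (20.2%). Within 50 bases of the start site it was held by 29 of the 45 promoters (64.4%), against 4.04% of the promoters of genes tested. In Cdc20 the hexamer began at position -18, between CCAAT boxes that began at -53 and -8, in Kif23 it began 3 bases into the transcript, and in Ndc80 it began at position 30. The close variant TTCGAA, another CHR form, was held by 4 of the 45 (8.89%) against 2.64% of promoters of genes tested. CCAAT, the NF-Y box, was held by 32 of the 45 (71.1%) against 43.8%, and the hexamer together with CCAAT by 27 of the 45 (60%) against 6.23%. The median match of TTTGAA lay at position -16 over 46 matches, and that of CCAAT at -68 over 77 matches, each start site of a gene with more than 1 being counted, and their order differed between promoters. Any of 3 E2F-type forms (TTTCCCGC, TTTGGCGC or TTTCGCGC) was held by 5 of the 45 (11.1%), namely Cdk1, Kif15, Kif18a, Ncapd2 and Ncapg, against 4.56%. The palindromic EBF1 consensus motif was in none of the 45 windows, against 105 of 8605 windows of genes tested (1.22%). With only 45 windows, 0 is near that share and shows no lack of the motif. The promoter window of Pttg1 held none of the 7 motifs. A match is a description of the letters and not evidence that a factor was bound.

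**Figure D1:**
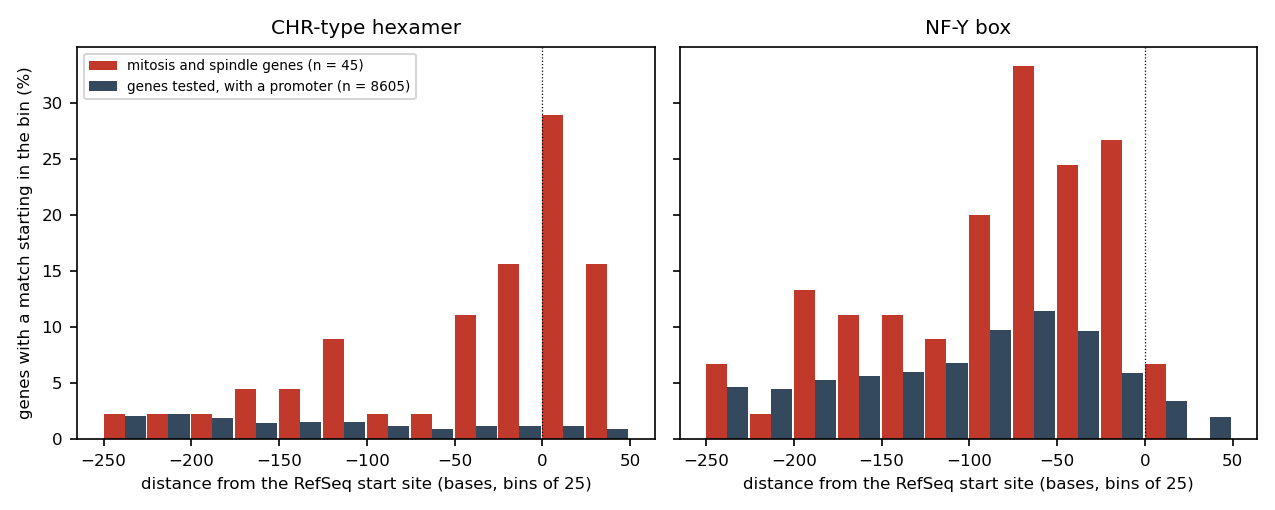
Share of promoters (%) with a match that starts in each bin of 25 bases, by distance from the RefSeq start site, for the 45 mitosis and spindle promoters (red) and 8605 promoters of genes tested (dark blue); the left panel is for TTTGAA and the right panel for CCAAT. Hexamer matches of the mitosis and spindle genes pile up at the start site, with 28.9% of promoters in the bin just after it against 1.13%, while the NF-Y box peaks at 33.3% against 11.4% in the bin that starts 75 bases upstream.

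The libraries held 33170855 to 38999496 exonic reads in the dTAG-13 group and 28982316 to 38170273 in the DMSO group. Intronic reads made up 20.4% to 27.3% of reads in genes in dTAG-13 libraries and 22.2% to 26.1% in DMSO libraries. Depth (p = 0.2) and intronic share (p = 0.714) did not pass a two-sided exact permutation test of 4 against 4 libraries. Most pro-B markers were present: the summed level of 12 of them was 2378 to 2509 exonic CPM (exonic read counts scaled to library size with TMM factors) in dTAG-13 libraries, against 3219 to 3299 in DMSO libraries. Within that sum Dntt was at only 1 to 1.74 CPM in dTAG-13 libraries and 0.898 to 1.56 in DMSO libraries (adjusted p = 0.463). Ebf1 was called higher (log2 change 0.30, adjusted p = 2.12e-07). Each of the others was called lower, with log2 changes from -0.30 (Cd79a) to -2.39 (Igll1). Of the defining markers of other cell types, 4 of 5 for T cells, 2 of 3 for NK cells, 2 of 3 for stroma and all 3 for erythroid cells were at 0 in every library. The summed level of 3 NK cell markers was 0.381 to 0.727 CPM in dTAG-13 libraries and 0.104 to 0.261 in DMSO libraries, with Klrb1c called higher (adjusted p = 0.0251), and that of 4 myeloid markers was 0.485 to 1.115 CPM in dTAG-13 libraries and 0.162 to 0.449 in DMSO libraries, with Lyz2 called higher (adjusted p = 0.0305). Plasma cell markers summed to 8.485 to 9.185 CPM in dTAG-13 libraries and 9.42 to 11.6 in DMSO libraries: Prdm1 was at 0, Sdc1 was lower (log2 change -0.56, adjusted p = 0.000139) and Jchain, at 2.20 to 3.115 CPM in dTAG-13 libraries and 0.588 to 1.93 in DMSO libraries, was higher (log2 change 1.27, adjusted p = 0.000801). The part of these cell types in the results below was not tested. Ebf1 mRNA, which says nothing about degradation of the protein, was 723 to 815.5 CPM in dTAG-13 libraries and 607.8 to 639.4 CPM in DMSO libraries.

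After 6 h of dTAG-13, 14 of the 54 mitosis and spindle genes had fallen in exonic reads and 1 had risen. The changes were small: Pttg1 fell by 24.1%, Ndc80 fell by 23.4%, the median gene of the 14 fell by 9.60% and the least changed, Ncapd2, fell by 6.775%. They lay in the spindle checkpoint and its targets (Mad2l1, Ttk, Cdc20, Pttg1), in the condensins and other chromosome proteins (Smc4, Ncapd2, Ncapg, Mki67), in motors of the spindle and midzone (Kif18a, Kif20a, Kif23), and in Ccna2, Birc5 and Ndc80. The kinases that run mitosis, Cdk1, Plk1, Aurka and Aurkb, and the B cyclins Ccnb1 and Ccnb2 did not pass the test. With reads over whole genes, exons and introns together, 6 members were lower (Pttg1, Ndc80, Ttk, Kif18a, Kif23 and Ncapg) and Cdc25b was no longer called. The share of all genes lower in whole-gene reads is not given here, so that count of 6 has no background beside it. Calls were made with edgeR's quasi-likelihood test at an adjusted p below 0.05 over 12889 genes.

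The 14 lower genes were 25.9% of the set, where 14% of all genes tested were lower, and the 1 higher gene, Cdc25b, was 1.85%, where 14.3% of all genes tested were higher. The median SE of the log2 changes was 0.04 for the members and 0.07 over all genes tested. The part of that difference in the shares called was not tested. A log2 change below 0 was found for 42 of the 54 genes (77.8%), as for 50.7% of all genes tested, and the median log2 change was -0.07, as against -0.003 over all genes tested. All 54 passed the filter on low counts, so these figures cover the whole set. All 4 dTAG-13 libraries lay below all 4 DMSO libraries for 13 of the 54 genes, which included 10 of the 14 called lower, where 13.5% of all genes tested did so. For no member did all dTAG-13 libraries lie above all DMSO libraries, where 14.2% of genes tested did so. The 39 genes not called had log2 changes from -0.13 to 0.10. Of these, Incenp, Kif11, Kif20b and Nusap1 had adjusted p values between 0.05 and 0.1. No member changed by as much as 2-fold.

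**Figure D2:**
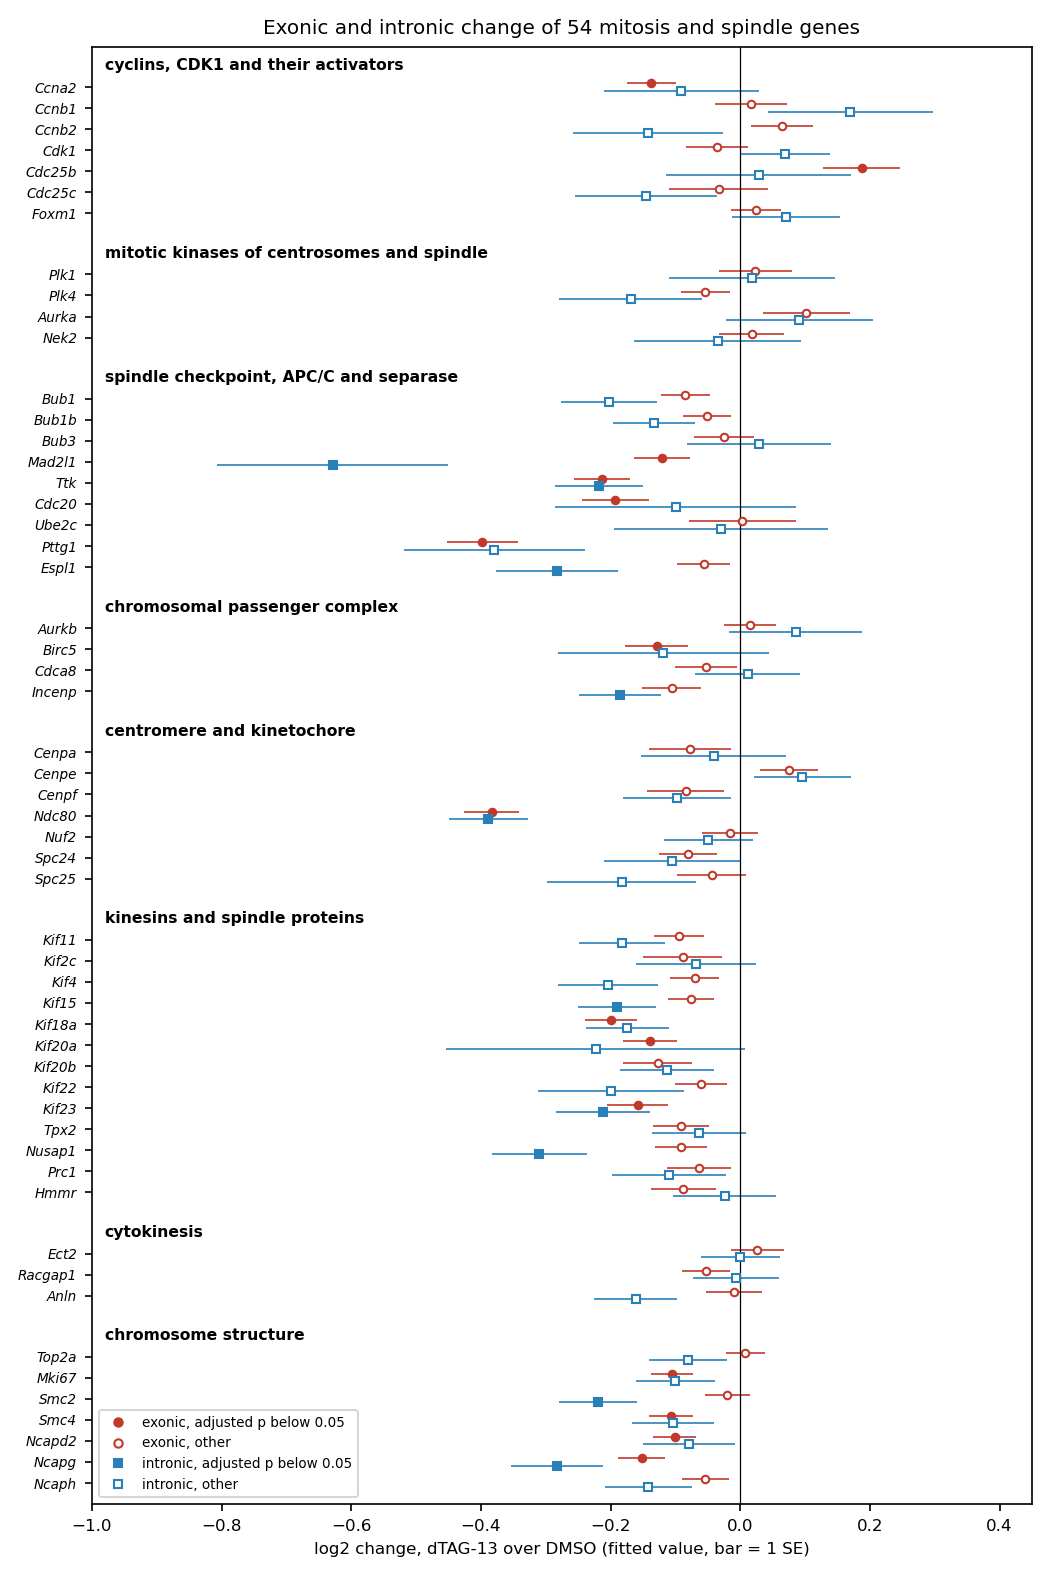
Fitted log2 change, dTAG-13 over DMSO, of the 54 mitosis and spindle genes in exonic reads (red circles) and intronic reads (blue squares), grouped by role; bars are 1 SE, and filled symbols have an adjusted p below 0.05. Exonic changes run from -0.40 (Pttg1) to 0.19 (Cdc25b), all 13 kinesins and spindle proteins lie left of 0 in both read classes, and the cyclin and kinase groups straddle 0.

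Among the 7 cyclins, CDK1 and its activators, 1 gene fell and 1 rose, and the median log2 change was 0.02. Each is 14.3% of the group, where 14% of all genes tested were lower and 14.3% higher. Ccna2, the A-type cyclin of S phase and mitotic entry, had 294, 298, 316 and 302 exonic CPM in the dTAG-13 libraries, against 315, 351, 330 and 334 in the DMSO libraries. It fell by 0.14 on the log2 scale (SE 0.04, adjusted p = 0.00636), though the groups met, with the highest dTAG-13 library at the level of the lowest DMSO library, and the call was lost with whole-gene reads (0.0979). Cdc25b, a phosphatase that starts CDK1 activation, had 100, 126, 131 and 118 exonic CPM in the dTAG-13 libraries, against 101, 109.5, 110.2 and 96.7 in the DMSO libraries. Its log2 change was 0.19 ± 0.06 (SE) with an adjusted p of 0.0172, and the lowest dTAG-13 library, replicate 1, lay inside the DMSO range. That call was lost without dTAG-13 replicate 2 (adjusted p = 0.0934), dTAG-13 replicate 3 (0.105), DMSO replicate 1 (0.0545) or DMSO replicate 4 (0.0831), and also with DESeq2 (0.128) and with whole-gene reads (0.0684).

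The central engine of mitosis showed nothing that passed the test. Ccnb1, the main mitotic cyclin, had 112, 135, 141 and 132 exonic CPM in the dTAG-13 libraries, against 115, 133, 136 and 129.5 in the DMSO libraries. Its partner kinase Cdk1 had 114, 129.7, 134 and 127 exonic CPM in the dTAG-13 libraries, against 121, 139, 133 and 125 in the DMSO libraries. In both genes replicate 1 was the lowest library of its group and the groups overlapped almost wholly. The log2 change was 0.02 for Ccnb1 (95% interval -0.09 to 0.13, from the SE and a normal approximation) and -0.04 for Cdk1 (-0.13 to 0.06). Foxm1, the transcription factor of late cell cycle genes, had 153, 166, 162 and 161 exonic CPM in the dTAG-13 libraries, against 151, 159, 157 and 164 in the DMSO libraries. Its log2 change was 0.02 (95% interval -0.05 to 0.10), with no separation of the groups. Ccnb2, the other B-type cyclin of the set, averaged 123 ± 10.3 exonic CPM in dTAG-13 libraries and 118 ± 4.43 in DMSO libraries (SD, n = 4 each), with an adjusted p of 0.365, and Cdc25c, a phosphatase related to Cdc25b, averaged 18.7 ± 1.62 exonic CPM in dTAG-13 libraries and 19.1 ± 1.54 in DMSO libraries (SD, n = 4 each), with an adjusted p of 0.801.

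None of the 4 kinases of centrosomes and spindle passed the test, where 14% of all genes tested were lower and 14.3% higher. A group of 4 is too small to tell 0 calls from those shares. The median log2 change of the 4 was 0.02. Plk1, the Polo kinase that acts from mitotic entry to cytokinesis, had 108, 132, 130.2 and 123 exonic CPM in the dTAG-13 libraries, against 106, 126, 128 and 125 in the DMSO libraries. Aurka, the Aurora kinase of spindle poles, had 48.9, 59.6, 64.9 and 56.6 exonic CPM in the dTAG-13 libraries, against 48.3, 59.6, 55.7 and 50.7 in the DMSO libraries. The groups spanned much the same range for Plk1 (log2 change 0.02, 95% interval -0.09 to 0.13), and for Aurka the highest library was a dTAG-13 one (0.10, 95% interval -0.03 to 0.23). Without dTAG-13 replicate 1, the lowest dTAG-13 library for both genes, Aurka had a log2 change of 0.17 and an adjusted p of 0.0249. Plk4, which starts centriole duplication, and Nek2, which splits centrosomes, had log2 changes of -0.05 and 0.02 with adjusted p values of 0.324 and 0.844.

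The spindle checkpoint and the genes of anaphase onset fell in 4 of 9 (44.4%, where 14% of all genes tested were lower), with a median log2 change of -0.08. Pttg1 (11:43420250-43426251 in the GENCODE vM21 annotation of GRCm38) encodes securin, which keeps separase inactive until anaphase. It had 36.5, 41.4, 43.8 and 43.8 exonic CPM in the dTAG-13 libraries, against 49.97, 54.6, 56.2 and 56.95 in the DMSO libraries. Every dTAG-13 library lay below every DMSO library, and the log2 change was -0.40 ± 0.06 (SE) (adjusted p = 1.99e-06), the most negative exonic value of the 54 genes. Ttk (9:83834689-83872389), the checkpoint kinase also called MPS1, had 52.95, 50.6, 51.2 and 54.5 exonic CPM in the dTAG-13 libraries, against 59.02, 63.7, 60.03 and 59.8 in the DMSO libraries. The groups did not overlap, and Ttk fell by 0.21 on the log2 scale (SE 0.04, adjusted p = 0.000347).

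Cdc20 (4:118432901-118437352), the APC/C activator that the checkpoint restrains, had 116, 132, 137 and 125 exonic CPM in the dTAG-13 libraries, against 132, 158, 151 and 142 in the DMSO libraries. Its groups overlapped, since 1 dTAG-13 library stood above the lowest DMSO library, and the log2 change was -0.19 ± 0.05 (SE) (adjusted p = 0.00488), a call lost with whole-gene reads (0.0527). Mad2l1, the MAD2 protein that binds CDC20 at the checkpoint, had 113, 108, 105 and 112 exonic CPM in the dTAG-13 libraries, against 114, 129.6, 119 and 114 in the DMSO libraries. Its groups did not overlap, but they lay within 1 CPM of each other and DMSO replicate 2 stood highest. The log2 change of Mad2l1 was -0.12 ± 0.04 (SE) (adjusted p = 0.0338), and the call was lost without dTAG-13 replicate 2 (0.0914), dTAG-13 replicate 3 (0.112), DMSO replicate 2 (0.177, log2 change -0.08) or DMSO replicate 3 (0.0526), with upper-quartile scaling (0.0722) and with whole-gene reads (0.113).

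The other checkpoint kinase, Bub1, had 90.5, 93.2, 92.7 and 94.7 exonic CPM in the dTAG-13 libraries, against 94.1, 99.5, 102 and 97.5 in the DMSO libraries. The highest dTAG-13 library reached just past the lowest DMSO library, and the log2 change of -0.08 did not pass (adjusted p = 0.107). Bub1b and Bub3, its partners at the kinetochore, had log2 changes of -0.05 and -0.02. Espl1, the separase that securin holds back, had -0.06, and Ube2c, the ubiquitin-conjugating enzyme of the APC/C, had 0.003. None of these passed the test.

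The chromosomal passenger complex, which corrects wrong attachments and later marks the midzone, fell in 1 of 4 (25%, where 14% of all genes tested were lower). Birc5, which encodes survivin, had 59.4, 67.05, 66.3 and 63.2 exonic CPM in the dTAG-13 libraries, against 64.4, 71.7, 74.8 and 68.8 in the DMSO libraries. The groups overlapped, and the log2 change of -0.13 ± 0.05 (SE) had an adjusted p of 0.0468, close to the threshold. The call was lost without dTAG-13 replicate 1 (0.155) or 4 (0.0865), without DMSO replicate 2 (0.12), 3 (0.191) or 4 (0.0656), with DESeq2 (0.0554), with upper-quartile scaling (0.103) and with whole-gene reads (0.142). Aurkb, the kinase of the complex, had 125, 134, 137 and 131 exonic CPM in the dTAG-13 libraries, against 128, 138, 128 and 127 in the DMSO libraries. The groups covered the same range (log2 change 0.01, 95% interval -0.06 to 0.09). Incenp, the scaffold, and Cdca8, also called borealin, had log2 changes of -0.11 (adjusted p = 0.0904) and -0.05 (adjusted p = 0.464).

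At the centromere and kinetochore 1 of 7 genes fell (14.3%, where 14% of all genes tested were lower). Ndc80 (17:71496100-71526857), the subunit of the NDC80 complex that grips microtubules, had 50.7, 46.97, 48.1 and 46.7 exonic CPM in the dTAG-13 libraries, against 62.4, 64.3, 62.1 and 62.2 in the DMSO libraries. The groups lay far apart compared with their spread, with a log2 change of -0.38 ± 0.04 (SE) and an adjusted p of 5.02e-08. The other subunits of the same 4-protein complex did not pass: Nuf2 had a log2 change of -0.02, Spc24 -0.08 and Spc25 -0.04, with adjusted p values of 0.836, 0.206 and 0.611. Spc24 kept all dTAG-13 libraries below all DMSO libraries (40.3 ± 0.343 exonic CPM in dTAG-13 libraries and 42.6 ± 1.25 in DMSO libraries (SD, n = 4 each)). The difference in change between Ndc80 and its partners was not tested. Cenpa, the histone variant of centromeres, Cenpe, a kinetochore kinesin, and Cenpf, a large kinetochore protein, had log2 changes of -0.08, 0.08 and -0.08, none past the threshold. Without dTAG-13 replicate 1, Cenpe was called higher.

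All 13 kinesins and spindle proteins had a log2 change below 0, from -0.20 (Kif18a) to -0.06 (Kif22), where 50.7% of all genes tested had one. Of the 13, 3 passed the test (23.1%, where 14% of all genes tested were lower). Kif18a (2:109280738-109341747), a motor that damps chromosome oscillation at the metaphase plate, had 77.7, 83.3, 79.7 and 86.1 exonic CPM in the dTAG-13 libraries, against 92.2, 93.4, 94.6 and 94.97 in the DMSO libraries. The groups did not overlap, and the log2 change was -0.20 ± 0.04 (SE) (adjusted p = 0.000311). Kif20a, a midzone motor needed for cytokinesis, had 104, 110.4, 108 and 104 exonic CPM in the dTAG-13 libraries, against 112, 127, 116 and 114 in the DMSO libraries. Its groups lay side by side without overlap (log2 change -0.14 ± 0.04 (SE), adjusted p = 0.0122), and the call was lost without DMSO replicate 2, the highest library (0.077), and with whole-gene reads (0.105). Kif23, the motor subunit of centralspindlin, had 69.3, 80.4, 75.9 and 74.5 exonic CPM in the dTAG-13 libraries, against 78.6, 80.4, 89.1 and 86.5 in the DMSO libraries. The highest dTAG-13 library stood just above the lowest 2 DMSO libraries, the log2 change was -0.16 ± 0.05 (SE) (adjusted p = 0.0126), and the call was lost without dTAG-13 replicate 1 (0.0532), DMSO replicate 3 (0.068) or DMSO replicate 4 (0.0505).

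Of the 10 others in that group, Kif11, the motor that separates spindle poles, had a log2 change of -0.09 (adjusted p = 0.0651) and Kif15, which backs it up, -0.08 (adjusted p = 0.117). Kif20b, a relative of Kif20a, had -0.13 (adjusted p = 0.0742), and Nusap1, a microtubule-bundling protein, had -0.09 (adjusted p = 0.0952). The chromokinesins Kif4 and Kif22, the depolymerase Kif2c, the spindle assembly factor Tpx2, the midzone bundler Prc1 and the spindle protein Hmmr had log2 changes between -0.09 and -0.06 with adjusted p values from 0.128 to 0.378. Among the 3 cytokinesis genes none passed, where 14% of all genes tested were lower and 14.3% higher, and 3 genes are too few to tell these apart. Ect2, which activates RhoA at the division site, had a log2 change of 0.03. Racgap1, the partner of Kif23 in centralspindlin, had -0.05, and Anln, which encodes anillin, had -0.009.

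Of the 7 genes of chromosome structure 4 fell (57.1%, where 14% of all genes tested were lower), and the median log2 change was -0.10. The count was 2 without DMSO replicate 4. Ncapg (5:45669919-45700546), a regulatory subunit of condensin I, had 118, 119, 120.5 and 118 exonic CPM in the dTAG-13 libraries, against 135, 131, 128 and 134 in the DMSO libraries. The lowest DMSO library stood well above the highest dTAG-13 library, and the log2 change was -0.15 ± 0.04 (SE) (adjusted p = 0.00186). Ncapd2, another condensin I subunit, had 446, 463, 470.5 and 457 exonic CPM in the dTAG-13 libraries, against 491, 498, 484 and 498 in the DMSO libraries. Smc4, an ATPase core of condensin, had 289, 288, 297 and 289 exonic CPM in the dTAG-13 libraries, against 321, 314, 315 and 304 in the DMSO libraries. Both were without overlap, with log2 changes of -0.10 (adjusted p = 0.0214) and -0.11 (adjusted p = 0.0183). The Ncapd2 call was lost without DMSO replicate 4 (0.0676) and the Smc4 call without dTAG-13 replicate 2 (0.0561) or DMSO replicate 1 (0.0662), and both with whole-gene reads (0.166 for Ncapd2 and 0.0866 for Smc4).

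Mki67, the Ki-67 antigen that coats mitotic chromosomes and is widely used to score proliferation, had 859.6, 861, 869.6 and 832 exonic CPM in the dTAG-13 libraries, against 919, 880.2, 933 and 949 in the DMSO libraries. All dTAG-13 libraries lay below all DMSO libraries, with a log2 change of -0.11 ± 0.03 (SE) (adjusted p = 0.0159), and the call was lost without DMSO replicate 4 (0.0861) and with whole-gene reads (0.146). Top2a, topoisomerase II alpha, had 1045, 1034, 1070 and 1045 exonic CPM in the dTAG-13 libraries, against 1029, 1044, 1037 and 1061 in the DMSO libraries. Its groups were interleaved, and with the deepest counts of the set (36961 exonic reads a library on average) its log2 change was 0.01 (95% interval -0.05 to 0.07). The 2 remaining genes were Smc2, the partner ATPase of Smc4, with a log2 change of -0.02 (adjusted p = 0.735), and Ncaph, the condensin I kleisin, with -0.05 (adjusted p = 0.309).

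**Figure D3:**
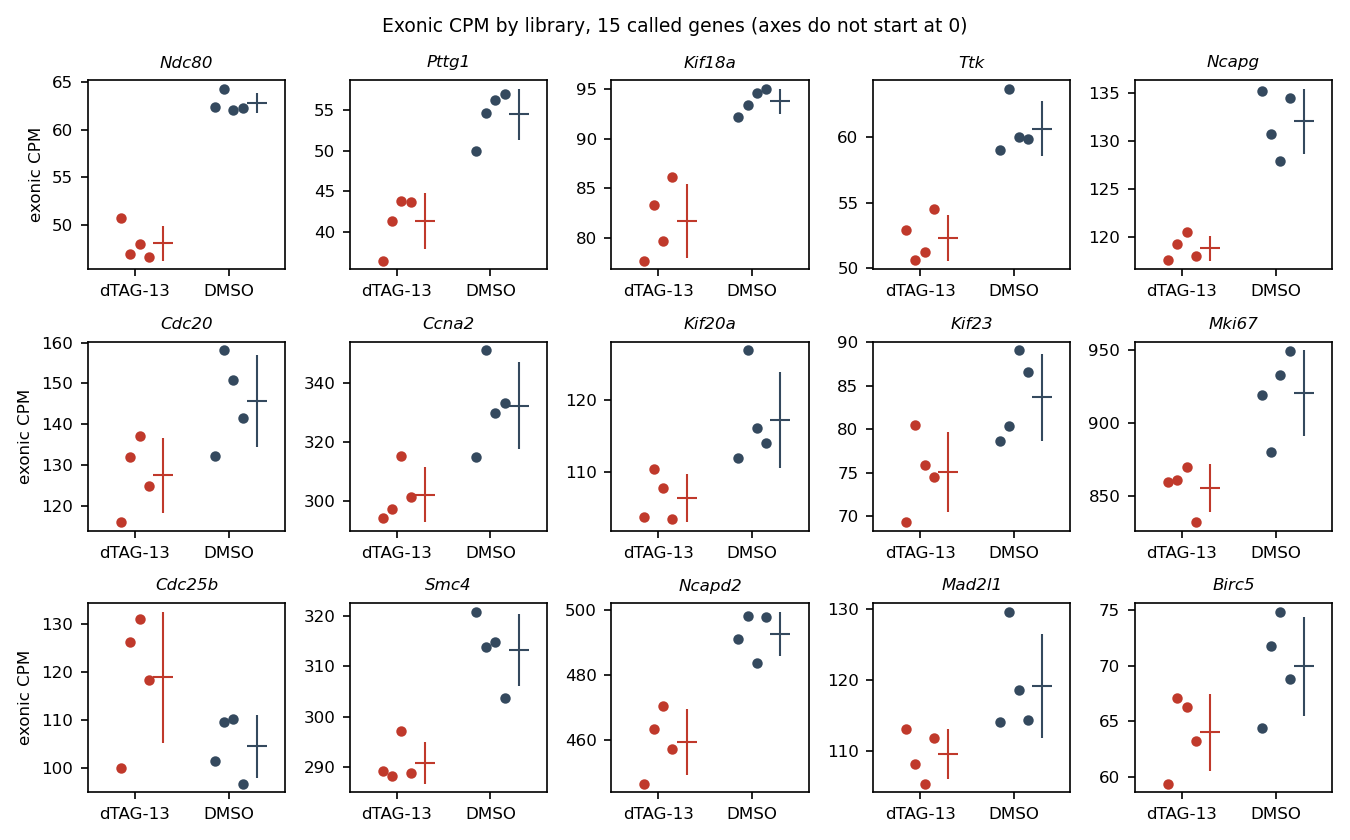
Exonic CPM in each library for the 15 genes called in exonic reads, dTAG-13 libraries in red and DMSO libraries in dark blue, with the mean and SD beside them; the vertical axes do not start at 0. Ndc80 at 46.7 to 50.7 CPM in dTAG-13 against 62.1 to 64.3 in DMSO libraries and Pttg1 at 36.5 to 43.8 CPM in dTAG-13 against 49.97 to 57.0 in DMSO libraries stand clear of overlap, while Cdc25b, Birc5, Kif23, Cdc20 and Ccna2 overlap.

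Per kilobase of exon, which allows only a rough comparison between genes, Top2a was the most abundant member at 116.3 CPM per kb in dTAG-13 libraries and 115.7 in DMSO libraries. The length merges all exons that GENCODE vM21 lists for a gene, and 39 of the 54 ID versions matched those counted. The ranks below depend on that annotation. Mki67 followed at 85.0 CPM per kb in dTAG-13 libraries and 91.5 in DMSO libraries, and Cdc25c was lowest at 3.798 in dTAG-13 libraries and 3.889 in DMSO libraries. The median over the 54 genes was 21.0 CPM per kb in dTAG-13 libraries and 21.6 in DMSO libraries. Pttg1, with the largest fall, was at 20.7 CPM per kb in dTAG-13 libraries and 27.2 in DMSO libraries, in the middle of the set, and Ndc80 was at 7.41 in dTAG-13 libraries and 9.67 in DMSO libraries, among the lower ones.

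Intronic reads, which come mostly from RNA not yet spliced, gave the same direction for most of the set. Of the 54 genes, 10 were lower and 0 higher in intronic reads, that is 18.5% lower where 8.5% of the 11229 genes tested were lower and 8.26% higher. DESeq2 called 9 lower and 0 higher, and its share over all genes is not given here. An unadjusted p below 0.05 was found for 18 of the 54 members, none with a positive change. Over all genes tested it was found for 3120 of 11229, in either direction. A log2 change below 0 was found for 43 of the 54 (79.6%), where 50.6% of all genes tested had one, and the median was -0.11, where it was -0.003 over all genes tested. All dTAG-13 libraries lay below all DMSO libraries for 9 of the 54, where 10% of genes tested did so, and for none did they lie above, where 9.51% did so. Both read classes had a negative change in 39 of the 54 genes. Intronic counts were lower, with a mean per library from 55.8 reads (Kif20a) to 3573 (Anln), so their errors were larger: the median SE of the members was 0.08 in intronic and 0.04 in exonic log2 changes. Over all genes tested it was 0.11 in intronic and 0.07 in exonic log2 changes.

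Ndc80, Ncapg, Ttk, Mad2l1 and Kif23 were called lower in both read classes. Ndc80 had 139, 139, 133 and 134 intronic CPM in the dTAG-13 libraries, against 175, 192, 169.7 and 178 in the DMSO libraries. The separation was as clear as in exonic reads, with a log2 change of -0.39 ± 0.06 (SE) (adjusted p = 3.83e-05). Ncapg had 59.5, 64.01, 59.9 and 57.1 intronic CPM in the dTAG-13 libraries, against 73.6, 74.3, 73.04 and 71.7 in the DMSO libraries. These too were fully apart, with a log2 change of -0.28 ± 0.07 (SE) (adjusted p = 0.00613). Mad2l1, with few intronic reads, had 9.43, 11.5, 7.10 and 9.24 intronic CPM in the dTAG-13 libraries, against 18.04, 14.4, 10.9 and 14.8 in the DMSO libraries. Its log2 change of -0.63 ± 0.18 (SE) was the most negative intronic value of the set (adjusted p = 0.0145), the groups overlapped, and the call was lost without dTAG-13 replicate 3 (0.0624) or DMSO replicate 1 (0.0782). Ttk had 93.9, 94.1, 87.3 and 105 intronic CPM in the dTAG-13 libraries, against 111, 104, 111 and 116 in the DMSO libraries. Kif23 had 105, 132, 128 and 129 intronic CPM in the dTAG-13 libraries, against 138, 151, 149 and 133 in the DMSO libraries. Ttk (-0.22, adjusted p = 0.0276) overlapped slightly and Kif23 (-0.21, adjusted p = 0.0481) did not, but each call was lost when any of 6 of the 8 libraries was left out, with adjusted p up to 0.137 for Ttk and 0.227 for Kif23.

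Nusap1, Smc2, Kif15, Espl1 and Incenp were lower in intronic reads and did not pass in exonic reads. Nusap1 had 72.4, 82.5, 72.7 and 76.6 intronic CPM in the dTAG-13 libraries, against 86.3, 102, 90.1 and 99.3 in the DMSO libraries. Smc2 had 153, 148, 143 and 154 intronic CPM in the dTAG-13 libraries, against 174, 170.5, 167 and 184 in the DMSO libraries. In both genes the groups did not overlap, with log2 changes of -0.31 ± 0.07 (SE) (adjusted p = 0.00344) and -0.22 ± 0.06 (SE) (adjusted p = 0.0115), and the Smc2 call was lost without DMSO replicate 4 (0.0881). Kif15 had 256, 279.9, 255 and 262 intronic CPM in the dTAG-13 libraries, against 289, 308, 297 and 307 in the DMSO libraries. Its groups were also apart (-0.19, adjusted p = 0.0295). Espl1 had 38.96, 56.1, 45.7 and 50.3 intronic CPM in the dTAG-13 libraries, against 60.5, 55.9, 59.3 and 57.3 in the DMSO libraries. Incenp had 175, 179.7, 204 and 191 intronic CPM in the dTAG-13 libraries, against 216, 209, 224 and 203 in the DMSO libraries. Both overlapped, with log2 changes of -0.28 (adjusted p = 0.0408) and -0.19 (adjusted p = 0.0467). Leaving out single libraries ended the calls of Kif15 (6 libraries, adjusted p up to 0.129), Espl1 (5 libraries, up to 0.184) and Incenp (6 libraries, up to 0.187). The count of 10 became 5 without dTAG-13 replicate 1 or dTAG-13 replicate 3, 4 without DMSO replicate 1 or DMSO replicate 4, 6 without DMSO replicate 3, and 5 with upper-quartile scaling, which ended the calls of Ttk, Espl1, Incenp, Kif15 and Kif23. The Kif23 call was also lost with DESeq2 (0.0634) and with RLE factors (0.0576), the Incenp call with RLE factors (0.0584) and without a filter on low counts (0.0583), and the Kif15 call without that filter (0.0501).

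Pttg1, the member with the largest exonic fall, had 13.2, 16.5, 11.8 and 15.1 intronic CPM in the dTAG-13 libraries, against 20.3, 19.3, 16.3 and 18.01 in the DMSO libraries. The intronic log2 change of -0.38 ± 0.14 (SE) was close to the exonic value but missed the threshold (adjusted p = 0.0657), and 1 dTAG-13 library just exceeded the lowest DMSO library. Kif18a had an intronic log2 change of -0.17 with groups fully apart (adjusted p = 0.0644). Ccna2, Cdc20, Birc5, Kif20a, Mki67, Smc4 and Ncapd2, called in exonic reads, had intronic log2 changes of -0.09, -0.10, -0.12, -0.22, -0.10, -0.10 and -0.08, none past the threshold. Cdc25b had an intronic log2 change of 0.03 (adjusted p = 0.933). A call in 1 read class and not in the other does not show that the classes differ, and that difference was tested directly.

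The exonic-intronic difference was tested as the interaction of treatment and read class in 1 model. It was called for 0 of the 54 genes by edgeR, where 0.289% of the 10026 genes tested were called, and 6 members had an unadjusted p below 0.05: Mad2l1, Smc2, Nusap1, Anln, Espl1 and Ccnb2. For each of the 6 the intronic change lay below the exonic one. The gap was 0.50 ± 0.15 log2 units (SE) for Mad2l1 (adjusted p = 0.273) and 0.20 ± 0.06 for Smc2 (adjusted p = 0.282). Without a filter on low counts Mad2l1 was called (adjusted p = 0.0165). Over the whole set the intronic change lay below the exonic one in 32 of 54 genes, with a median difference of 0.02, where it was 0.006 over all genes tested.

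The members moved together between libraries of the same group. Summed over the 54 genes, the level was 7928, 8397, 8570 and 8269 exonic CPM in the dTAG-13 libraries, against 8363, 8789, 8774 and 8711 in the DMSO libraries. Replicate 1 was the lowest library in each group, and dTAG-13 replicates 2 and 3 were above DMSO replicate 1. In dTAG-13 replicate 1, 43 of the 54 genes lay below their group mean, by a median of 0.07 log2 units, and in DMSO replicate 1 48 did, by a median of 0.06. In dTAG-13 replicate 3, 46 of the 54 genes lay above their group mean, by a median of 0.05. The median over all genes ran from -0.00651 to 0.0106 between libraries on this measure. The median change of -0.07 between the groups was -0.05 without dTAG-13 replicate 1 and -0.09 without dTAG-13 replicate 3.

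**Figure D4:**
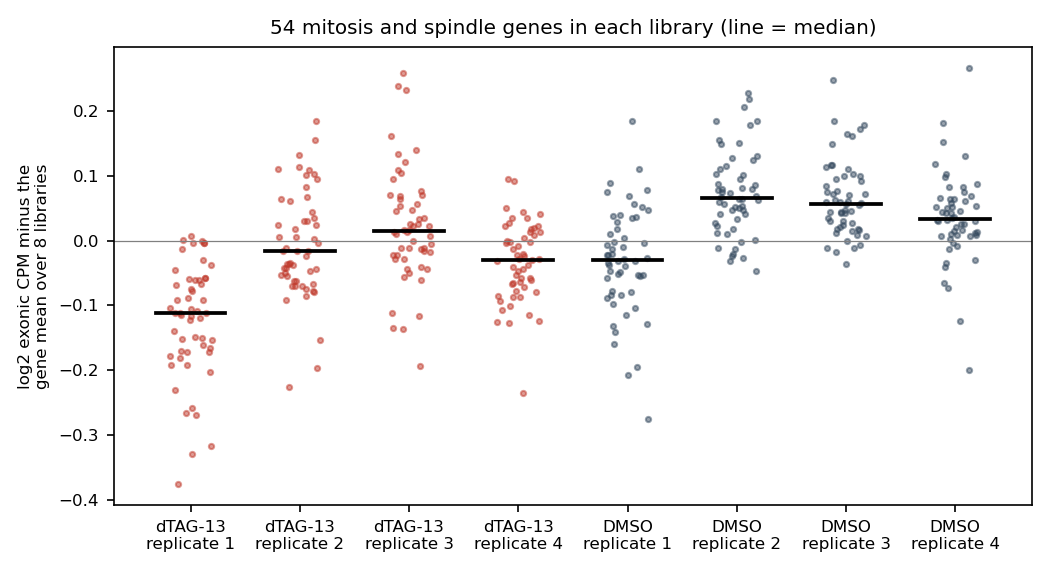
Log2 exonic CPM of each of the 54 genes in each library, minus the gene's mean over all 8 libraries; each point is a gene and the line is the median. Medians run from -0.11 in dTAG-13 replicate 1 to 0.07 in DMSO replicate 2, and dTAG-13 replicate 3 (0.01) stands above DMSO replicate 1 (-0.03).

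Further genes of the pathway, listed by role, gave shares close to those of the members. Of 129 other mitotic genes tested in exonic reads, 35 were lower (27.1%, where 14% of all genes tested were) and 4 higher (3.10%, where 14.3% were), with a median log2 change of -0.07, and in intronic reads 24 of 127 were lower (18.9%, where 8.5% were). The largest fall was in the DREAM and MuvB regulators, where 4 of 10 were lower (40%, where 14% of all genes tested were). Mybl2, the B-MYB partner of MuvB, averaged 56.9 ± 3.62 exonic CPM in dTAG-13 libraries and 88.8 ± 2.26 in DMSO libraries (SD, n = 4 each), a log2 change of -0.64 ± 0.04 (SE, adjusted p = 6.24e-12). Lin54 and Lin9, subunits of MuvB, and Tfdp1, the E2F partner, fell by 0.22, 0.18 and 0.14 on the log2 scale. Among entry and exit regulators 7 of 16 were lower (43.8%, where 14% of all genes tested were), led by Gtse1 (-0.31), Cdc25a (-0.30) and the CDK1-inhibiting kinase Wee1 (-0.29). Of cohesin and other condensin genes 8 of 17 were lower (47.1%, where 14% of all genes tested were), with the cohesin acetyltransferase Esco2 at -0.41 and the condensin II subunits Ncapg2 and Ncapd3 at -0.25 and -0.20. Of centromere and kinetochore genes 10 of 34 were lower (29.4%, where 14% of all genes tested were), led by Cenpn (-0.43) and Oip5 (-0.48). In that list 1 gene, Mad2l1bp, was higher (2.94%, where 14.3% of all genes tested were). Spindle, centrosome and cytokinesis genes had 5 of 35 lower (14.3%, near the 14% over all genes tested), namely Cep152, Stil, Haus6, Pcnt and Pimreg, and 1 higher (Kif2a, 2.86% of the list). The APC/C subunits and regulators had 1 of 17 lower (5.88%, where 14% of all genes tested were), the APC/C inhibitor Fbxo5 (-0.14). They had 2 higher (11.8%, where 14.3% of all genes tested were), Anapc11 (0.23) and Anapc16 (0.21).

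Genes of DNA replication, which act in S phase before mitosis, were mostly lower. Of 38 replication genes 30 were lower in exonic reads (78.9%, where 14% of all genes tested were), with a median log2 change of -0.23. DESeq2 called 29 of them lower, and its share over all genes is not given here. In intronic reads 20 of the 38 were lower (52.6%, where 8.5% of all genes tested were), with a median of -0.26. Pold1, the catalytic subunit of DNA polymerase delta, averaged 159.7 ± 2.31 exonic CPM in dTAG-13 libraries and 240.3 ± 1.12 in DMSO libraries (SD, n = 4 each), a log2 change of -0.59 ± 0.03 (SE, adjusted p = 1.85e-13). The replication initiation factor Mcm10 (-0.32), the GINS subunit Gins2 (-0.51) and the ribonucleotide reductase subunit Rrm2 (-0.33) were also lower. The median of -0.07 for the mitosis and spindle genes thus stood between that of all genes (-0.003) and that of the replication genes, and the difference between the lists was not tested.

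**Figure D5:**
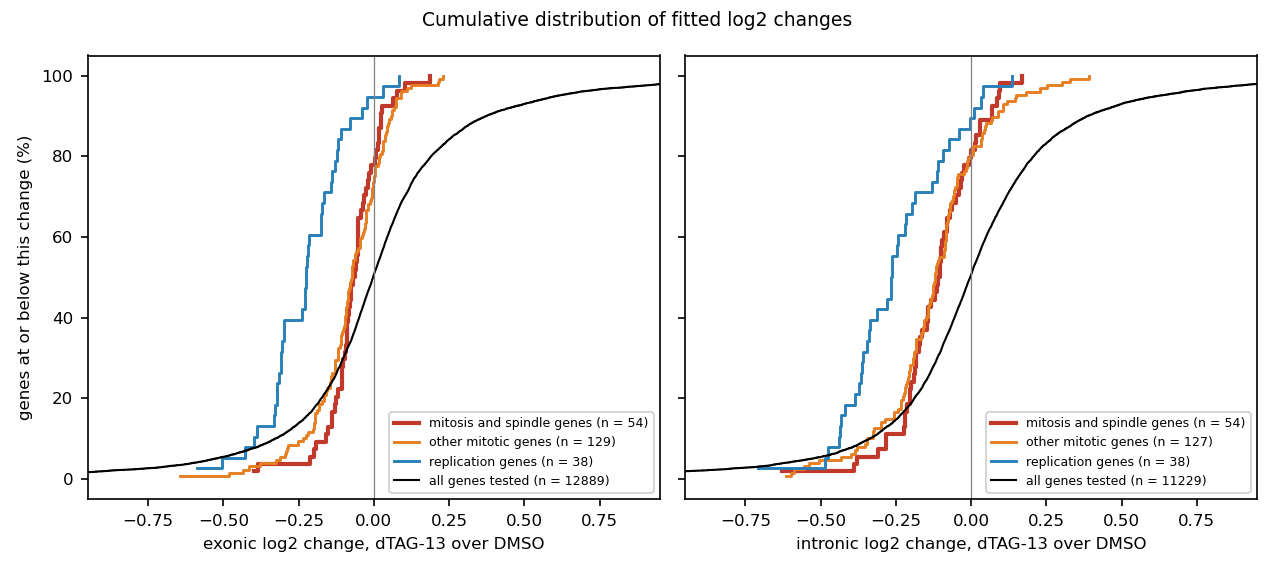
Share of genes (%) at or below each fitted log2 change, dTAG-13 over DMSO, in exonic reads (left) and intronic reads (right), for the 54 mitosis and spindle genes (red), other mitotic genes (orange), replication genes (blue) and all genes tested (black). The red and orange curves nearly coincide, with exonic medians of -0.07 and -0.07, left of the black curve at -0.003 and right of the blue curve at -0.23.

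The authors' deposited table gave nearly the same exonic calls at an adjusted p below 0.05: 14 members were lower and 0 higher, and 13 of the 14 were also lower here. That table lists 6.83% of its 25948 rows as lower and 6.98% as higher in exonic reads. It holds more rows than the 12889 genes tested here, so its shares are not comparable with the 14% lower and 14.3% higher given above. Birc5 and Cdc25b were called here and not there, and Kif11 there and not here. In intronic reads the authors' deposited table called 8 members lower and 0 higher, all 8 also called here, where 3.53% of rows were lower and 3.66% higher. Espl1 and Kif23 were called in intronic reads here and not there.

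Some values rest on reads that more than 1 gene may share. By the GENCODE vM21 annotation, 15 of the 54 genes share exon bases with a gene on the opposite strand. Among them are Ccna2 (with Exosc9), Cdc20 (Elovl1), Kif18a (Mettl15), Kif20a (Cdc23), Ncapg (Lcorl), Cdc25b (Spef1) and Nusap1 (Oip5). The shared length ran from 11 bases in Kif18a to 1271 in Kif20a. Oip5, which shares 172 bases with Nusap1, was itself lower in exonic reads (log2 change -0.48), and its part in the Nusap1 values was not tested. The strand setting of the counting is not given in the sources used here, so the values of the 15 genes are uncertain to that extent. Foxm1, Top2a and Ncapd2 share exon bases with a gene on the same strand, so their reads are ambiguous under any strand setting. Named pseudogenes exist for Ccnb1, Ccnb2, Kif4 and Kif22, whose reads could be split with their copies. Pttg1, Ndc80 and Ttk, among the members with the clearest falls, share no exon bases with another annotated gene. The 54 genes lie on 16 chromosomes, with at most 10 on 1 of them.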

How the data were processed

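RNA-seq of 8 libraries was analysed, 4 treated with dTAG-13 and 4 with DMSO, grouped by their titles and treatment labels. Total RNA was depleted of ribosomal RNA and made into stranded libraries, per the labels' protocols. The authors deposited raw read counts per gene over exons and over whole genes, per the labels and the design text. Builds given in the submitters' processing notes are GRCm38.p4 and mm10, and the tools are featureCounts from Subread 2.0.0, STAR 2.7.4a, DESeq2, deepTools 3.3.2 and SAMtools 1.10. The strand setting of the counting is not given in the sources used here. The authors' deposited table also holds DESeq2 log2 fold changes, their standard errors (treated as a score), p-values and adjusted p-values for exonic and intronic reads, per the file headers; only its log2 fold changes and adjusted p-values were used.

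Intronic counts were whole-gene minus exonic counts, and none was negative. Genes were filtered with filterByExpr (minimum count 10, minimum total 15) and tested with edgeR 4.0.16 in R 4.3.3 (TMM factors, quasi-likelihood F test, treatment as the only term), with Benjamini-Hochberg adjustment over all genes tested and a threshold of 0.05. SEs were derived from the log2 change and F. The exonic-intronic difference was the interaction in a model over 16 columns with library as a block. Intervals and depth cover counting and replicate spread of these libraries only. The scripts were tested on simulated counts. DESeq2 1.42.0 was an alternative.

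Values of every library were given for members called in either read class and for Ccnb1, Cdk1, Plk1, Aurka, Aurkb, Bub1, Mki67, Top2a and Foxm1, and at most 6 genes with the smallest p were named from each other list. The members, lists and motifs were chosen with earlier results of these data known. Promoters came from RefSeq (GRCm38.p6), gene positions from GENCODE vM21. Of 136 listed names of other mitotic genes, 130 were found.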

Additional observations from a re-analysis of the deposited data

Results flagged for a closer look

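In 8 of 136 groups of 4 libraries, 1 library stood apart from the other 3 by more than Dixon's 95% critical value, and chance flags about 1 in 20 groups. In dTAG-13 libraries, Cenpe was lowest in replicate 1 at 97.82 exonic CPM (the others 112.0 to 113.5), and Cenpf was lowest there at 109.1 (the others 137.8 to 143.7). Kif23 was also lowest in dTAG-13 replicate 1 in intronic reads, at 105.1 CPM, and without that library its intronic call was lost (adjusted p = 0.227). Among the other dTAG-13 values, Kif22 was highest at 102.9 exonic CPM and Smc4 was highest at 297.1, still below every DMSO library. In DMSO libraries, Plk1 was lowest in replicate 1 at 105.6 exonic CPM, Aurkb was highest in replicate 2 at 138.4, and Ndc80 was highest in replicate 2 at 64.31, a gap that leaves its fall in place without any single library.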

How the results depend on the processing

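Of the 14 exonic falls, Ttk, Pttg1, Ndc80, Kif18a and Ncapg passed under all 16 alternatives, and of the 10 intronic falls Ndc80, Nusap1 and Ncapg passed under all 15. With whole-gene counts 6 members were lower and 0 higher, with DESeq2 0 were higher in exonic reads, and upper-quartile factors left 5 lower in intronic reads. No share of all genes is given beside these counts. Without a filter on low counts 1 member and 110 genes in all (29 with the filter) had unlike exonic and intronic changes. The cause of these shifts was not tested. Scaling moved the median of all genes by 0.02 or less on the log2 scale.

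Leaving out 1 library at a time gave 10 to 16 members lower and 0 to 3 higher in exonic reads (3 were Cdc25b, Aurka and Cenpe, without dTAG-13 replicate 1), 4 to 11 lower and 0 to 0 higher in intronic reads, and 0 to 0 with unlike change. The median log2 change of the members ran from -0.09 to -0.05 in exonic and from -0.15 to -0.08 in intronic reads. Over all genes, 3259 to 3635 exonic and 1606 to 1845 intronic calls were made, and 11 to 25 differences. Other mitotic genes had 28 to 37 lower and 1 to 4 higher, replication genes 26 to 31 lower and 0 to 0 higher. Among the members given with values of every library, signs turned, none of them past the threshold, for Ccnb1 (-0.031 to 0.082), Cdk1 (-0.068 to 0.010), Plk1 (-0.037 to 0.080), Aurkb (-0.0064 to 0.044) and Top2a (-0.0019 to 0.016) in exonic reads, and for Cdc25b (-0.046 to 0.22), Plk1 (-0.051 to 0.14), Cdc20 (-0.19 to 0.031) and Birc5 (-0.22 to 0.030) in intronic reads.

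Libraries with the same replicate number did not deviate together over all genes (correlations -0.02 to 0.05), and 2 of the 4 dTAG-13 libraries matched their own number best there. Over the 54 members, correlations were 0.14 to 0.63 for same numbers and -0.62 to 0.54 for unlike numbers. The 0.54 was for dTAG-13 replicate 2 with DMSO replicate 3, above its 0.14 with DMSO replicate 2. With a replicate block, 17 members were lower in exonic reads, adding Incenp, Kif11 and Kif20b, and 10 in intronic reads, so no call was lost. The share of all genes called with that block is not given here, so the added calls have no background beside them.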

Other observations

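The promoter letters of the mitosis and spindle genes were also counted in the other lists. TTTGAA was in 32 of 45 promoters of the mitosis and spindle genes (71.1%), in 37 of 107 of the other mitotic genes (34.6%) and in 4 of 29 of the replication genes (13.8%). Any of the 3 E2F-type forms was in 5 of 45 (11.1%), 13 of 107 (12.1%) and 12 of 29 (41.4%) of the same lists. Within the mitosis and spindle genes, TTTGAA was in 7 of the 11 promoters of genes lower in exonic reads (63.6%) and in 25 of the 34 others (73.5%), and CCAAT in 6 of 11 (54.5%) and 26 of 34 (76.5%). The difference between these shares was not tested.

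Fitted changes of subunits of the same complex can be set side by side. Of the NDC80 complex, Ndc80 had an exonic log2 change of -0.38 and Nuf2 of -0.02, and of centralspindlin Kif23 had -0.16 and Racgap1 -0.05. Of condensin, Smc4 had an exonic log2 change of -0.11 and Smc2 of -0.02, while in intronic reads Smc4 had -0.10 and Smc2 -0.22. These pairs were chosen after their values were seen, and their differences were not tested.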
